A study of Sus scrofa with 12 samples.

Results

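The values of 44 genes that encode cluster of differentiation (CD) surface antigens or members of the tumour necrosis factor (TNF) superfamily were compared between 12 blood cell libraries of pigs. The genes were those of the 7480 in the table whose symbol starts with CD and a digit, with TNFRSF or with TNFSF. This pattern finds 54 genes, and CD2AP, CD2BP2, CD2, CD3D, CD27, CD40, CD79A, CD163, CD274 and TNFSF10 were left out. The libraries are labelled as peripheral blood mononuclear cells (PBMC, the lymphocytes and monocytes of blood) of crossbred Duroc x Landrace x Yorkshire piglets, and the 3 groups hold 4 libraries each. One group was treated with a miR-124 sponge and Salmonella, another with Salmonella alone, and the control group was not treated. Here the sponge is a synthetic oligo, made to bind and hold that microRNA. The titles of the first group name miR-124 without a sponge, which stands in the treatment labels only. Per the series text, blood came from 20 piglets aged 4 weeks, the bacterium was Salmonella Typhi, and cells were taken at 12 h. The sources used here give neither the dose, nor the animal or animals behind each library, nor whether animals or isolated cells were treated. The p-values therefore measure only the spread between these libraries, which may be technical.

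CD molecules are proteins of the leukocyte surface by which cell types are told apart, and many are receptors, coreceptors or adhesion molecules. Ligands of the TNF superfamily act mostly as trimers and bind receptors of the TNF receptor superfamily. Receptors with a death domain recruit adapters that can start apoptosis, others recruit TRAF adapters that activate NF-kB, and decoy receptors bind a ligand without signalling. In blood, these pairs govern the costimulation of T cells, the survival of B cells and plasma cells, and inflammatory signalling in myeloid cells.

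The deposited values are 1 log2 value per gene and library, with medians between 5.11 and 5.31 per library, and the read depth behind them is unknown. Columns of the sponge plus Salmonella group stand apart. In these, 65.1% to 71.4% of genes shared their exact value with at least 1 other gene of the column, while at most 0.0267% did so in Salmonella columns and 0.0802% in control columns. Of the 44 genes, 23 to 26 had such a tied value in each sponge plus Salmonella library and 0 in each other library. Distinct values that occurred in both columns of a pair, at whichever gene, numbered 501 to 559 within the sponge plus Salmonella group, 610 to 790 between it and columns of the other groups, and 1696 to 1808 between Salmonella and control columns. Treatment and column type cannot be told apart in any comparison with this group. Another 182 genes taken as silent in blood, such as olfactory receptors, had a mean of 4.62 and a 95th percentile of 5.24, which was read as background. Of these 182 symbols, 53 were found in the pig gene tables. Of the 44 genes, 42 were found in the RefSeq annotation of Sscrofa11.1 by symbol and CD1A by a synonym, while TNFRSF10A was not found. CD6, CD47, CD72, CD80, CD177, TNFRSF11B and TNFRSF17 overlap another annotated gene, and since the sources used here do not state strand-aware counting, reads of both genes may be mixed in their values. Markers of mononuclear cells were present, with T cell markers at a mean of 8.57 to 8.88 and B cell markers at 9.75 to 10.61 in control libraries. Markers of neutrophils, platelets and erythroid cells were present too. Among the epithelial and stromal markers, of which 4 were measured, KRT5, COL1A1 and DES stayed below 5.24 in all 12 libraries. The other, COL3A1, did not, and it was called higher with Salmonella than in control libraries and lower with the sponge than with Salmonella alone. COL1A1 was called in the opposite direction in both comparisons. DES was called lower with sponge plus Salmonella than in control libraries.

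A gene was called where limma gave an adjusted p below 0.05 over all 7480 genes. Between Salmonella and control libraries, 27 of the 44 genes were called, beside 33.6% of all 7480. Of these 27, 22 were lower (17.9% of all genes) and 5 higher (15.7%). The median log2 difference of the 44 was -0.63, against -0.02 over all genes. The groups did not overlap for 24 of the 44 (35.6% of all genes), with Salmonella lower for 21 (19.9%) and higher for 3 (15.7%). In such bulk samples, fewer cells of a type and less RNA per cell cannot be told apart. Between sponge plus Salmonella and Salmonella libraries, 16 were called (25.0% of all genes), of which 13 were higher (11.9%) and 3 lower (13.2%). The median difference was 0.19, against -0.04 over all genes. The groups did not overlap for 13 genes (23.8%), of which 9 were higher (10.6%) and 4 lower (13.2%). Between sponge plus Salmonella and control libraries, 20 were called (40.9% of all genes), of which 15 were lower (23.0%) and 5 higher (17.9%). Here the median was -0.40, against -0.07 over all genes, and the groups did not overlap for 17 genes (39.7%), of which 14 were lower (22.5%) and 3 higher (17.3%). Any 2 of these comparisons share a group of libraries, so they are not independent of each other. Libraries were left out 1 at a time, and a call is said to end without a library where it missed 0.05 in the fit of the other 11. The 5 rises with Salmonella fell to 3 without Salmonella replicates 2 or 3 or control replicates 1 or 3, and to 3 with each library centred on its median. Such centring turned the split over all genes from 1175 higher and 1338 lower into 965 and 1778 for Salmonella against control, with 3 and 23 among the 44. For sponge plus Salmonella against control it turned 1336 higher and 1721 lower into 1062 and 2569, with 5 and 22 among the 44. The 13 rises with the sponge fell to 7 without sponge plus Salmonella replicate 4 and to 8 without Salmonella replicates 2 or 4. The 5 rises against control fell to 3 without sponge plus Salmonella replicate 4 or control replicate 1.

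**Figure D1:**
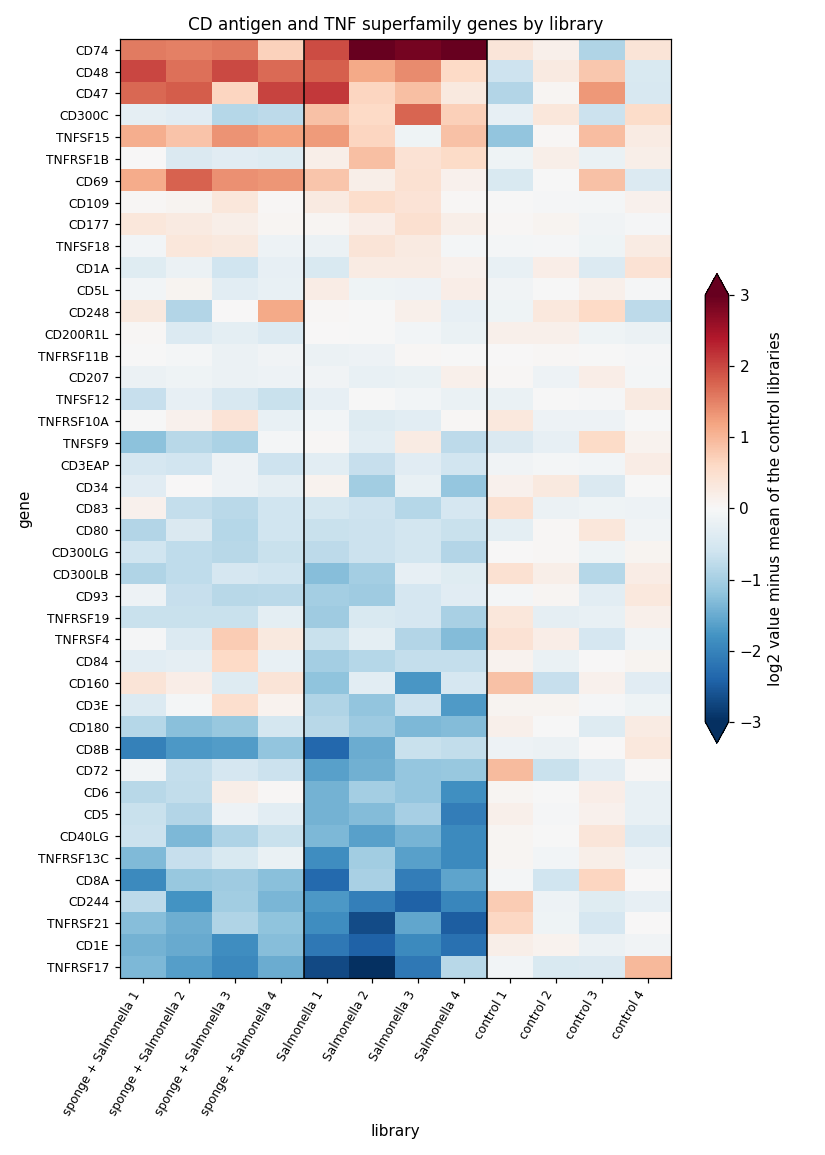
Log2 value of 43 of the 44 genes (rows, ordered by the difference between Salmonella and control libraries) in each of 12 libraries (columns), shown as the difference from the mean of the 4 control libraries. CD74 and CD48 are at the top and TNFRSF17 and CD1E at the bottom, and the colour scale ends at 3 log2 units in either direction.

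Of the 4 TNFSF ligand genes, 0 were called between Salmonella and control libraries, beside 33.6% of all genes. Between sponge plus Salmonella and Salmonella libraries it was 0 as well (25.0% of all genes). TNFSF12 and TNFSF15 differed between sponge plus Salmonella and control libraries (40.9%). These 4 genes are too few to set against such shares, and TNFSF18 stayed at background. A further ligand of the superfamily, CD40LG, carries a CD symbol and was called in all 3 comparisons. CD40LG encodes the CD40 ligand of activated helper T cells, which engages CD40 on B cells and antigen-presenting cells (chromosome X, 111778666 to 111788901 in Sscrofa11.1). Its values were 7.49, 6.78, 7.22 and 7.48 log2 units in sponge plus Salmonella libraries, 6.80, 6.51, 6.75 and 6.22 in Salmonella libraries and 8.21, 8.12, 8.50 and 7.72 in control libraries. Every Salmonella and every sponge plus Salmonella library lay below every control library, while the sponge plus Salmonella and Salmonella groups overlapped by 1 library of each. With Salmonella, CD40LG fell against control (log2 difference -1.57 ± 0.22 SE, adjusted p = 0.000108). It was higher with the sponge than with Salmonella alone (0.67 ± 0.22 SE, adjusted p = 0.0378) and lower than in control libraries (-0.90 ± 0.22 SE, adjusted p = 0.00553). The call against Salmonella alone ended without sponge plus Salmonella replicate 1, 3 or 4, Salmonella replicate 2, 3 or 4, or control replicate 2 (adjusted p from 0.052 to 0.107) and with only both groups in the fit (adjusted p = 0.0595).

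TNFSF12 encodes TWEAK, a ligand made by monocytes and macrophages (chromosome 12, 52843026 to 52853328). It was at 8.83, 9.26, 9.02 and 8.84 in sponge plus Salmonella libraries, 9.28, 9.51, 9.43 and 9.31 in Salmonella libraries and 9.31, 9.51, 9.47 and 9.77 in control libraries. The sponge plus Salmonella group lay below both other groups without overlap. TNFSF12 fell against control (-0.52 ± 0.15 SE, adjusted p = 0.0126), and its difference from Salmonella was -0.39 ± 0.15 SE, adjusted p = 0.0688. The difference from Salmonella passed without sponge plus Salmonella replicate 2 (adjusted p = 0.0373) and without the variance trend (adjusted p = 0.0453). TNFSF15 encodes TL1A, a costimulator of T cells (chromosome 1, 255328731 to 255349508), and was at 7.11, 6.88, 7.38 and 7.22 in sponge plus Salmonella libraries, 7.31, 6.67, 5.90 and 6.89 in Salmonella libraries and 4.83, 6.05, 6.95 and 6.26 in control libraries. All groups overlapped, with control replicate 1 lowest of the 12 libraries. It was called higher with sponge plus Salmonella than in control libraries (1.12 ± 0.38 SE, adjusted p = 0.0291), and this call ended without sponge plus Salmonella replicate 3 or 4, or control replicate 1 or 2 (adjusted p from 0.0528 to 0.0919). Without control replicate 1 the difference was 0.72. TNFSF9 encodes the ligand of the T cell costimulator 4-1BB and averaged 5.14 ± 0.50 in sponge plus Salmonella, 5.70 ± 0.46 in Salmonella and 5.90 ± 0.44 in control libraries (SD, n = 4 each). It was called in none of the 3 comparisons (adjusted p 0.0612 to 0.644), but its difference between sponge plus Salmonella and control (-0.76 ± 0.31 SE) passed without sponge plus Salmonella replicate 4, or control replicate 1 (adjusted p from 0.0216 to 0.0466), with each library centred on its median (adjusted p = 0.0247), after quantile normalization (adjusted p = 0.0316) and with genes of a mean under 5 left out (adjusted p = 0.0465). The sponge plus Salmonella mean of TNFSF9 lay under 5.24, so the size of this difference is uncertain. TNFSF18, the ligand of GITR, stayed at background, at 4.69 ± 0.26, 4.69 ± 0.26 and 4.59 ± 0.16 in the sponge plus Salmonella, Salmonella and control groups.

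Receptor genes of the TNF receptor superfamily were called in both directions. Of 5 receptors that bind TRAF adapters, 4 were lower and 1 higher with Salmonella than in control libraries (median -0.78, against -0.02 over all genes), beside 17.9% and 15.7% of all genes. With the sponge, 2 were higher and 1 lower than with Salmonella alone (median 0.69, against -0.04), beside 11.9% and 13.2% of all genes. The member that rose with Salmonella was TNFRSF1B, which encodes TNFR2, the TNF receptor of leukocytes (chromosome 6, 72195420 to 72231146). Its values were 11.84, 11.39, 11.49 and 11.45 in sponge plus Salmonella libraries, 12.01, 12.73, 12.25 and 12.41 in Salmonella libraries and 11.69, 12.00, 11.63 and 12.00 in control libraries. Each Salmonella library lay above each library of the other groups, and TNFRSF1B rose over control (0.52 ± 0.17 SE, adjusted p = 0.027). It was lower with the sponge than with Salmonella alone (-0.81 ± 0.17 SE, adjusted p = 0.00387), and the difference from control was -0.29 ± 0.17 SE, adjusted p = 0.185. After quantile normalization the difference from Salmonella was -0.48. The rise with Salmonella ended without Salmonella replicate 2 or 4, or control replicate 1 or 3 (adjusted p from 0.0549 to 0.0903) and with each library centred on its median (adjusted p = 0.0519).

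Both receptors of the B cell lineage fell with Salmonella. TNFRSF17 encodes BCMA, a receptor of plasma cells and plasmablasts (chromosome 3, 31137672 to 31141862). It was at 7.21, 6.90, 6.62 and 7.07 in sponge plus Salmonella libraries, 5.86, 5.04, 6.42 and 7.73 in Salmonella libraries and 8.46, 8.10, 8.13 and 9.54 in control libraries. All control libraries lay above the rest, and the Salmonella libraries were spread over more than the whole range of the sponge plus Salmonella group. Its difference from control with Salmonella (-2.29 ± 0.45 SE, adjusted p = 0.00134) was the lowest of the 44 genes. With the sponge it was lower than in control libraries (-1.61 ± 0.45 SE, adjusted p = 0.0111), and the difference from Salmonella alone was not called (0.69 ± 0.45 SE, adjusted p = 0.27) but passed without Salmonella replicate 4 (adjusted p = 0.0389). TNFRSF13C encodes the receptor for the B cell survival factor BAFF and averaged 5.27 ± 0.48 in sponge plus Salmonella, 4.33 ± 0.40 in Salmonella and 5.94 ± 0.15 in control libraries (SD, n = 4 each). It fell with Salmonella (-1.61 ± 0.25 SE, adjusted p = 0.000233), was higher with the sponge than with Salmonella alone (0.94 ± 0.25 SE, adjusted p = 0.0148) and lower than in control libraries (-0.67 ± 0.25 SE, adjusted p = 0.0435). The last of these calls ended without sponge plus Salmonella replicate 1 or 2, Salmonella replicate 3, or control replicate 1, 2, 3 or 4 (adjusted p from 0.0572 to 0.141) and with only both groups in the fit (adjusted p = 0.0564). All Salmonella values of TNFRSF13C lay below 5.24, so the sizes are uncertain, and with 32 added on the linear scale the differences were -0.83, 0.44 and -0.39 in the same order.

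TNFRSF21 encodes death receptor 6, which carries a death domain (chromosome 7, 42020219 to 42091521). It was at 5.75, 5.57, 6.13 and 5.81 in sponge plus Salmonella libraries, 5.16, 4.34, 5.46 and 4.54 in Salmonella libraries and 7.65, 6.89, 6.53 and 7.04 in control libraries. The 3 groups did not overlap, with Salmonella lowest and control highest. TNFRSF21 fell with Salmonella (-2.15 ± 0.30 SE, adjusted p = 8.58e-05), and with the sponge it was higher than with Salmonella alone (0.94 ± 0.30 SE, adjusted p = 0.0322) and lower than in control libraries (-1.21 ± 0.30 SE, adjusted p = 0.00513). The rise over Salmonella alone ended without sponge plus Salmonella replicate 3 or 4, or Salmonella replicate 2 or 4 (adjusted p from 0.0654 to 0.0978) and with 32 added on the linear scale (adjusted p = 0.0748). The Salmonella mean of TNFRSF21, 4.88, lay under 5.24, so the sizes of the differences from that group are uncertain. With 32 added on the linear scale, the difference was -1.40 for Salmonella against control and 0.51 for the sponge against Salmonella alone. TNFRSF4 encodes OX40, a costimulator of activated T cells, and averaged 7.47 ± 0.50 in sponge plus Salmonella, 6.54 ± 0.42 in Salmonella and 7.32 ± 0.40 in control libraries. Its fall with Salmonella (-0.78 ± 0.29 SE, adjusted p = 0.0475) ended without sponge plus Salmonella replicate 1 or 4, Salmonella replicate 1, 3 or 4, or control replicate 1, 2 or 4 (adjusted p from 0.0527 to 0.139), without the variance trend (adjusted p = 0.0536) and with 32 added on the linear scale (adjusted p = 0.0557). The rise with the sponge over Salmonella alone (0.94 ± 0.29 SE, adjusted p = 0.028) ended without sponge plus Salmonella replicate 3 or 4, or Salmonella replicate 3 or 4 (adjusted p from 0.0637 to 0.0858). TNFRSF19, which encodes the receptor TROY, averaged 5.13 ± 0.19, 4.95 ± 0.31 and 5.70 ± 0.29 in the sponge plus Salmonella, Salmonella and control groups. It was lower than in control libraries with Salmonella (-0.76 ± 0.21 SE, adjusted p = 0.013) and with sponge plus Salmonella (-0.58 ± 0.21 SE, adjusted p = 0.0407), and the call with the sponge ended without sponge plus Salmonella replicate 1, 2 or 3, or control replicate 1 or 4 (adjusted p from 0.0798 to 0.111). Both treated groups of TNFRSF19 had means under 5.24, so the sizes are uncertain. With 32 added, its differences from control were -0.42 and -0.33.

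Neither the death receptor gene TNFRSF10A, in humans a receptor of the ligand TRAIL, nor the decoy receptor gene TNFRSF11B (osteoprotegerin) was called in any comparison. TNFRSF10A averaged 7.04 ± 0.27 in sponge plus Salmonella, 6.78 ± 0.20 in Salmonella and 6.96 ± 0.21 in control libraries, with adjusted p between 0.338 and 0.761. TNFRSF11B stayed at background, between 4.36 and 4.58 in all 12 libraries. It was called between sponge plus Salmonella and control libraries only when each library was centred on its median (adjusted p = 0.0317). Other genes of TNF receptor signalling were taken from a list of 49 adapters, kinases and NF-kB genes, of which 13 were measured. With Salmonella, 3 of the 13 were higher and 1 lower than in control libraries (median -0.04, against -0.02 over all genes), beside 15.7% higher and 17.9% lower among all genes, so the share called is near that of all genes. CASP10, an initiator caspase, was higher (1.58 ± 0.24 SE, adjusted p = 0.000194), with a mean in control libraries of 4.15, under the background mean. CFLAR, which restrains caspase activation at death receptors, rose (0.91 ± 0.17 SE, adjusted p = 0.000817), as did MAP3K5, a stress kinase (0.73 ± 0.14 SE, adjusted p = 0.00116). NFKBIA, an inhibitor of NF-kB, fell (-0.89 ± 0.14 SE, adjusted p = 0.000271). Between sponge plus Salmonella and Salmonella libraries 0 of the 13 were called (25.0% of all genes), and against control 4 were higher and 3 lower, beside 17.9% and 23.0% of all genes. The genes of the founding ligand TNF and of the Fas ligand FASLG were called in none of the 3 comparisons.

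**Figure D2:**
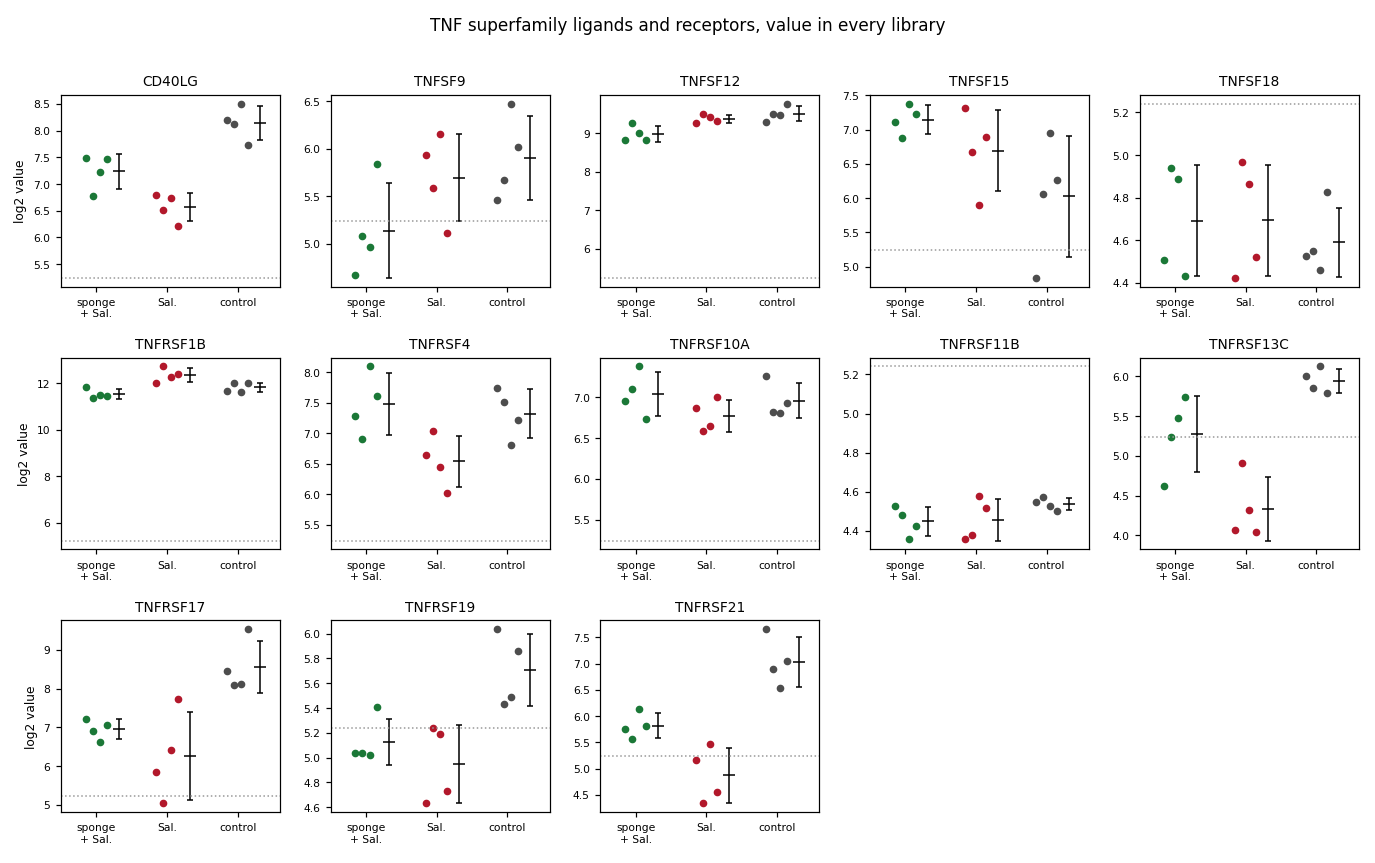
Log2 value of the TNF superfamily ligand and receptor genes in every library (points; left to right sponge plus Salmonella, Salmonella marked Sal., and control), with the mean and SD of 4 libraries (bar) and the background level of 5.24 (dotted line). The vertical scales differ between genes. TNFRSF21 shows 3 groups without overlap, and TNFRSF1B is highest in the Salmonella libraries.

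Of 10 antigens of T and NK cells, 7 were lower and 1 was higher with Salmonella than in control (median -1.21, against -0.02 over all genes), beside 17.9% and 15.7% of all genes. With the sponge, 6 were higher (11.9% of all genes) and 0 lower (13.2%) than with Salmonella alone (median 0.87, against -0.04), and against control 2 were higher (17.9%) and 3 lower (23.0%), with a median of -0.20 against -0.07. CD3E encodes the epsilon chain of the T cell receptor complex (chromosome 9, 45619730 to 45633972). It was at 7.38, 7.72, 8.30 and 7.90 in sponge plus Salmonella libraries, 6.89, 6.60, 7.17 and 6.08 in Salmonella libraries and 7.87, 7.87, 7.76 and 7.65 in control libraries. Each Salmonella library lay below all others, and the other groups overlapped. CD3E fell with Salmonella (-1.10 ± 0.24 SE, adjusted p = 0.00273) and was higher with the sponge than with Salmonella alone (1.14 ± 0.24 SE, adjusted p = 0.00419), and its difference between sponge plus Salmonella and control was 0.04 ± 0.24 SE, adjusted p = 0.911.

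CD5 and CD6 are scavenger receptor family proteins that tune T cell receptor signals, and their genes neighbour each other (CD5 on chromosome 2, 10648973 to 10673479, and CD6 at 10739560 to 10785548). CD5 was at 7.22, 7.01, 7.73 and 7.55 in sponge plus Salmonella libraries, 6.45, 6.59, 6.87 and 5.79 in Salmonella libraries and 8.03, 7.83, 8.00 and 7.65 in control libraries. CD6 was at 9.96, 10.06, 10.96 and 10.83 in sponge plus Salmonella libraries, 9.38, 9.76, 9.64 and 8.95 in Salmonella libraries and 10.86, 10.77, 10.98 and 10.56 in control libraries. For both genes all Salmonella libraries were the lowest, and the sponge plus Salmonella group overlapped the control group. CD5 fell with Salmonella (-1.45 ± 0.24 SE, adjusted p = 0.000346) and was higher with the sponge than with Salmonella alone (0.95 ± 0.24 SE, adjusted p = 0.0104). CD6 fell with Salmonella as well (-1.36 ± 0.23 SE, adjusted p = 0.000514) and was higher with the sponge (1.02 ± 0.23 SE, adjusted p = 0.0066). Neither was called between sponge plus Salmonella and control libraries (CD5 -0.50 ± 0.24 SE, adjusted p = 0.104, and CD6 -0.34 ± 0.23 SE, adjusted p = 0.258). CD5 passed as lower there with each library centred on its median (adjusted p = 0.038).

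Genes of the CD8 coreceptor of cytotoxic T cells fell with Salmonella and were also lower than control with the sponge. CD8A encodes the alpha chain (chromosome 3, 57999228 to 58029768) and CD8B the beta chain (chromosome 3, 57968358 to 57986450). CD8A was at 9.70, 10.49, 10.57 and 10.38 in sponge plus Salmonella libraries, 9.30, 10.65, 9.56 and 10.04 in Salmonella libraries and 11.56, 11.02, 12.27 and 11.64 in control libraries. CD8B was at 5.26, 5.58, 5.63 and 6.11 in sponge plus Salmonella libraries, 4.93, 5.80, 6.63 and 6.55 in Salmonella libraries and 7.15, 7.11, 7.31 and 7.61 in control libraries. For both genes every control library lay above all 8 others, and both treated groups overlapped. CD8A differed from control by -1.34 ± 0.30 SE with sponge plus Salmonella (adjusted p = 0.00298) and by -1.74 ± 0.30 SE with Salmonella (adjusted p = 0.000516). CD8B differed by -1.65 ± 0.33 SE with sponge plus Salmonella (adjusted p = 0.0015) and by -1.32 ± 0.33 SE with Salmonella (adjusted p = 0.00707). Between sponge plus Salmonella and Salmonella, the differences of 0.40 ± 0.30 SE for CD8A (adjusted p = 0.339) and -0.33 ± 0.33 SE for CD8B (adjusted p = 0.481) were not called. Pig NK cells and many activated T cells also carry the alpha chain of CD8.

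Receptors of the SLAM family lie together on chromosome 4, with CD244 at 89668221 to 89700974, CD48 at 89828923 to 89844471 and CD84 at 89932020 to 89980476, and they moved in different directions. CD244 encodes 2B4, a receptor of NK and cytotoxic T cells whose ligand is CD48. CD244 was at 6.63, 5.62, 6.38 and 6.04 in sponge plus Salmonella libraries, 5.69, 5.38, 4.99 and 5.47 in Salmonella libraries and 8.19, 7.27, 7.06 and 7.17 in control libraries. Control libraries were the highest without overlap, while 1 library of each treated group overlapped. It fell with Salmonella (-2.04 ± 0.29 SE, adjusted p = 0.000117) and was lower than control with the sponge (-1.26 ± 0.29 SE, adjusted p = 0.00368). Its difference between sponge plus Salmonella and Salmonella (0.78 ± 0.29 SE, adjusted p = 0.0614) was not called but passed without sponge plus Salmonella replicate 2, Salmonella replicate 1, or control replicate 1 (adjusted p from 0.0352 to 0.0469) and with genes of a mean under 5 left out (adjusted p = 0.0484).

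CD48, a GPI-anchored ligand found on most leukocytes, was at 12.01, 11.65, 11.97 and 11.70 in sponge plus Salmonella libraries, 11.80, 11.13, 11.41 and 10.61 in Salmonella libraries and 9.39, 10.28, 10.80 and 9.53 in control libraries. The sponge plus Salmonella libraries lay above all control libraries, and the Salmonella group overlapped both. CD48 rose with Salmonella (1.24 ± 0.29 SE, adjusted p = 0.00455) and with sponge plus Salmonella over control (1.83 ± 0.29 SE, adjusted p = 0.000329). The difference between both treated groups (0.60 ± 0.29 SE, adjusted p = 0.144) passed after quantile normalization only (adjusted p = 0.0473). CD84, a receptor that binds itself, averaged 7.43 ± 0.44 in sponge plus Salmonella, 6.65 ± 0.15 in Salmonella and 7.48 ± 0.14 in control libraries. It fell with Salmonella (-0.83 ± 0.21 SE, adjusted p = 0.0078) and was higher with the sponge than with Salmonella alone (0.78 ± 0.21 SE, adjusted p = 0.0165).

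CD69, an early activation antigen of lymphocytes (chromosome 5, 62078134 to 62084961), was at 6.40, 7.04, 6.64 and 6.61 in sponge plus Salmonella libraries, 6.10, 5.46, 5.74 and 5.40 in Salmonella libraries and 4.81, 5.27, 6.15 and 4.87 in control libraries. Sponge plus Salmonella libraries were the highest of all 12, and the Salmonella and control groups overlapped. CD69 was higher with the sponge than with Salmonella alone (0.998 ± 0.30 SE, adjusted p = 0.025) and than in control libraries (1.40 ± 0.30 SE, adjusted p = 0.00218), while Salmonella alone differed from control by 0.40 ± 0.30 SE, adjusted p = 0.326. The call against Salmonella alone ended without sponge plus Salmonella replicate 2, or Salmonella replicate 2 or 4 (adjusted p from 0.0669 to 0.0683). Control replicates 1 and 4 lay below 5.24, and with 32 added on the linear scale the difference from control was 0.90. CD160, a GPI-anchored receptor of NK and cytotoxic T cells, averaged 7.97 ± 0.37 in sponge plus Salmonella, 6.89 ± 0.65 in Salmonella and 7.83 ± 0.68 in control libraries. It was called higher with the sponge than with Salmonella alone (1.09 ± 0.35 SE, adjusted p = 0.035), a call that ended without sponge plus Salmonella replicate 1, 2 or 4, or Salmonella replicate 1 or 3 (adjusted p from 0.0654 to 0.108) and without the variance trend (adjusted p = 0.0525). Its difference between Salmonella and control (-0.94 ± 0.35 SE, adjusted p = 0.0507) missed the threshold and passed without Salmonella replicate 2 or 4, or control replicate 2 (adjusted p from 0.025 to 0.0408), with each library centred on its median (adjusted p = 0.0336), after quantile normalization (adjusted p = 0.0421) and with genes of a mean under 5 left out (adjusted p = 0.038).

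Of 9 T cell markers, 3 (CD3E, CD5 and CD6) are among the 44 genes. With Salmonella against control, 8 of the 9 were called lower (17.9% of all genes) and 0 higher (15.7%). With the sponge, 9 were higher than with Salmonella alone (11.9%). Against control, 2 were higher with the sponge (17.9%), both with control means under 5.24, and 3 lower (23.0%). The mean of the 9 lay between 8.26 and 8.80 in sponge plus Salmonella libraries, 7.22 and 7.84 in Salmonella libraries, and 8.57 and 8.88 in control libraries. Both NK cell markers measured averaged 7.86 to 8.45 in sponge plus Salmonella, 7.24 to 7.90 in Salmonella and 8.75 to 8.96 in control libraries. KLRB1, 1 of the pair, was lower with Salmonella than in control (17.9% of all genes). With the sponge it was higher than with Salmonella alone (11.9%) and lower than in control libraries (23.0%). The other, KLRK1, was called in no comparison. The part of these T and NK cell markers in the antigen differences was not tested.

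The B cell antigen genes CD72, CD180, CD80 and CD83 were each called lower with Salmonella than in control, beside 17.9% of all genes. Of these named genes, only CD72 was called higher with the sponge than with Salmonella alone, beside 11.9% of all genes. CD72, an inhibitory coreceptor of B cells, averaged 7.07 ± 0.29 in sponge plus Salmonella, 6.22 ± 0.23 in Salmonella and 7.56 ± 0.70 in control libraries. It fell with Salmonella (-1.34 ± 0.29 SE, adjusted p = 0.0028), and its rise with the sponge over Salmonella alone (0.85 ± 0.29 SE, adjusted p = 0.0457) ended without sponge plus Salmonella replicate 1, 2, 3 or 4, Salmonella replicate 1, 2, 3 or 4, or control replicate 4 (adjusted p from 0.0555 to 0.11), with each library centred on its median (adjusted p = 0.0582), without the variance trend (adjusted p = 0.053) and with 32 added on the linear scale (adjusted p = 0.0679). CD180 encodes a relative of the Toll-like receptors and averaged 4.82 ± 0.32, 4.62 ± 0.24 and 5.76 ± 0.28 in the sponge plus Salmonella, Salmonella and control groups. It was lower than control with Salmonella (-1.14 ± 0.20 SE, adjusted p = 0.000655) and with sponge plus Salmonella (-0.94 ± 0.20 SE, adjusted p = 0.00239). CD80, a B7 costimulatory ligand of T cells, averaged 4.67 ± 0.21, 4.73 ± 0.06 and 5.37 ± 0.27 in the same order. It too was lower than control with Salmonella (-0.63 ± 0.16 SE, adjusted p = 0.00658) and with sponge plus Salmonella (-0.70 ± 0.16 SE, adjusted p = 0.00328). Both treated groups of CD180 and CD80 had means under 5.24, so the sizes of these falls are uncertain. With 32 added on the linear scale, the falls were -0.61 with Salmonella and -0.51 with sponge plus Salmonella for CD180, and -0.33 and -0.35 for CD80.

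CD83, a maturation antigen of dendritic cells that B cells also carry, averaged 7.14 ± 0.43 in sponge plus Salmonella, 7.01 ± 0.16 in Salmonella and 7.63 ± 0.31 in control libraries. Its fall with Salmonella (-0.62 ± 0.23 SE, adjusted p = 0.0475) ended without sponge plus Salmonella replicate 2 or 4, Salmonella replicate 1, 2, 3 or 4, or control replicate 1, 2, 3 or 4 (adjusted p from 0.0524 to 0.155). The difference between sponge plus Salmonella and control (-0.49 ± 0.23 SE, adjusted p = 0.0967) passed without sponge plus Salmonella replicate 1 (adjusted p = 0.0153) and with each library centred on its median (adjusted p = 0.0392). Of 3 B cell markers, 3 were called lower with Salmonella against control (17.9% of all genes). With the sponge, 3 were higher than with Salmonella alone (11.9%), and 2 were lower than in control libraries (23.0%). Their mean lay between 9.03 and 9.50 in sponge plus Salmonella, 7.36 and 7.78 in Salmonella, and 9.75 and 10.61 in control libraries, and their part in the differences of the B cell antigens was not tested.

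Of 3 genes of antigen presentation, 1 was higher and 1 lower in each of the 3 comparisons, a count too small to set against the shares of all genes. Those shares were 15.7% higher and 17.9% lower with Salmonella against control, 11.9% and 13.2% with the sponge against Salmonella alone, and 17.9% and 23.0% with the sponge against control. CD74 encodes the invariant chain, which guides class II molecules to the compartment where peptides are loaded (chromosome 2, 151402210 to 151409924). It was at 8.04, 7.99, 8.04 and 7.17 in sponge plus Salmonella libraries, 8.43, 10.24, 9.35 and 9.70 in Salmonella libraries and 6.83, 6.63, 5.56 and 6.85 in control libraries. The 3 groups did not overlap, with control lowest and Salmonella highest. CD74 rose with Salmonella (2.96 ± 0.36 SE, adjusted p = 3.26e-05), was lower with the sponge than with Salmonella alone (-1.62 ± 0.36 SE, adjusted p = 0.00586) and was higher with the sponge than in control libraries (1.34 ± 0.36 SE, adjusted p = 0.00949).

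CD1E, whose product helps to load lipid antigens (chromosome 4, 92012787 to 92019363), moved the other way. It was at 5.31, 5.22, 4.88 and 5.46 in sponge plus Salmonella libraries, 4.60, 4.31, 4.83 and 4.50 in Salmonella libraries and 6.93, 6.84, 6.57 and 6.63 in control libraries. Again the 3 groups did not overlap, here with Salmonella lowest. The means of the sponge plus Salmonella and Salmonella groups both lay under 5.24, so the size of the difference between them, and of those from control, is uncertain. CD1E fell with Salmonella (-2.18 ± 0.21 SE, adjusted p = 3.83e-06) and was lower than control with the sponge (-1.52 ± 0.21 SE, adjusted p = 0.000128). Its rise with the sponge over Salmonella alone (0.66 ± 0.21 SE, adjusted p = 0.0313) ended without sponge plus Salmonella replicate 1, 2 or 4, or Salmonella replicate 2 or 4 (adjusted p from 0.0581 to 0.0941) and with 32 added on the linear scale (adjusted p = 0.0793). With 32 added, the differences were -1.32 for Salmonella against control, 0.32 for the sponge against Salmonella alone and -1.0 for the sponge against control. CD1A, matched to the pig gene CD1.1, presents lipids to T cells and was not called, at 5.94 ± 0.19, 6.33 ± 0.33 and 6.29 ± 0.39 in the sponge plus Salmonella, Salmonella and control groups (adjusted p 0.253 to 0.912). CD1 genes resemble each other, so reads could be split between copies. Among 5 dendritic cell markers, 2 were called lower (17.9% of all genes) and 0 higher (15.7%) with Salmonella against control. With the sponge, 1 was higher than with Salmonella alone (11.9%), and 3 were lower than in control libraries (23.0%). Their mean lay between 7.36 and 7.65 in sponge plus Salmonella, 7.11 and 7.42 in Salmonella, and 7.96 and 8.48 in control libraries, and their part in these differences was not tested.

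Of 6 myeloid antigens, 1 was higher and 2 lower with Salmonella (median -0.40, against -0.02 over all genes). With the sponge, 1 was lower than with Salmonella alone, and 2 were lower than in control libraries. CD207 and CD200R1L among the 6 stayed at background. CD300LG, 1 of the 2 lower than control, is known from blood vessel lining. Over all genes, 15.7% were higher and 17.9% lower with Salmonella, 13.2% were lower with the sponge than with Salmonella alone and 23.0% than in control libraries, so the shares of the 6 that were higher with Salmonella or lower than with Salmonella alone are near those of all genes. CD300C encodes an activating receptor of monocytes (chromosome 12, 6632078 to 6635924). It was at 8.20, 8.15, 7.63 and 7.70 in sponge plus Salmonella libraries, 9.35, 9.09, 10.23 and 9.18 in Salmonella libraries and 8.22, 8.83, 7.82 and 9.03 in control libraries. Each Salmonella library lay above all others, and the other groups overlapped. CD300C rose with Salmonella (0.98 ± 0.29 SE, adjusted p = 0.0163), and this call ended without Salmonella replicate 3, or control replicate 3 (adjusted p from 0.0504 to 0.057). It was lower with the sponge than with Salmonella alone (-1.54 ± 0.29 SE, adjusted p = 0.00197), and its difference between sponge plus Salmonella and control (-0.56 ± 0.29 SE, adjusted p = 0.133) passed without control replicate 3 (adjusted p = 0.0415).

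Nearby on chromosome 12, CD300LB (6637290 to 6646459), encodes another activating receptor of the family and averaged 5.94 ± 0.17 in sponge plus Salmonella, 5.91 ± 0.50 in Salmonella and 6.64 ± 0.59 in control libraries. It was not called (Salmonella against control -0.73 ± 0.31 SE, adjusted p = 0.0809). Without control replicate 3 it passed as lower than control with Salmonella (adjusted p = 0.0123) and with sponge plus Salmonella (adjusted p = 0.0126), and the difference with the sponge also passed with each library centred on its median (adjusted p = 0.0424). Genes of this family are similar in sequence, so reads could be split between them. CD300LG, a family member of blood vessel lining, was at 4.68 ± 0.11, 4.68 ± 0.15 and 5.39 ± 0.09 in the sponge plus Salmonella, Salmonella and control groups. It was lower than control with Salmonella (-0.71 ± 0.13 SE, adjusted p = 0.000775) and with sponge plus Salmonella (-0.71 ± 0.13 SE, adjusted p = 0.000767), and since both treated groups were at background, the sizes are uncertain. With 32 added, both were -0.36.

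CD93, a receptor of monocytes, neutrophils and endothelium, averaged 10.79 ± 0.31 in sponge plus Salmonella, 10.67 ± 0.36 in Salmonella and 11.40 ± 0.26 in control libraries. It fell with Salmonella (-0.74 ± 0.21 SE, adjusted p = 0.0124) and was lower with the sponge than in control libraries (-0.62 ± 0.21 SE, adjusted p = 0.0266), a call that ended without sponge plus Salmonella replicate 2, 3 or 4, or control replicate 2 or 4 (adjusted p from 0.0593 to 0.085) and after quantile normalization (adjusted p = 0.0552). Of 6 monocyte markers, none among the 44 genes, 4 were higher (15.7% of all genes) and 0 lower (17.9%) with Salmonella than in control. With the sponge, 4 were lower than with Salmonella alone (13.2%), and 3 were higher than in control libraries (17.9%). Their mean lay between 9.57 and 10.15 in sponge plus Salmonella, 10.25 and 10.68 in Salmonella, and 9.11 and 9.46 in control libraries, and its part in the differences of CD74, CD300C and TNFRSF1B was not tested. Neutrophil markers, 4 in all, averaged 8.92 to 9.52 in sponge plus Salmonella, 9.29 to 9.67 in Salmonella and 7.61 to 8.51 in control libraries. Erythroid markers, 3 in all, averaged 7.49 to 9.82, 10.05 to 10.79 and 8.85 to 9.77 in the same order, and 5 platelet markers 8.76 to 9.27, 8.57 to 9.12 and 7.82 to 8.11. Of the neutrophil, erythroid and platelet markers, 2, 1 and 4 were higher with Salmonella than in control (15.7%) and 0 lower (17.9%). With the sponge against Salmonella alone, 0, 0 and 2 were higher (11.9%) and 0, 3 and 1 lower (13.2%). Against control, 1, 0 and 2 were higher with the sponge (17.9%) and 0 lower (23.0%). The part of these markers was not tested either.

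Of 4 antigens that are widely expressed or mark other cells, 0 were called with Salmonella against control, beside 33.6% of all genes. CD47 was higher with sponge plus Salmonella than in control libraries, as were 17.9% of all genes. These 4 are too few to set against such shares, and CD177 among them stayed at background. CD47, a surface signal that restrains phagocytosis (chromosome 13, 151427933 to 151488064), was at 6.86, 6.94, 5.78 and 7.17 in sponge plus Salmonella libraries, 7.25, 5.78, 6.03 and 5.43 in Salmonella libraries and 4.25, 5.20, 6.44 and 4.65 in control libraries. All groups overlapped. The difference between sponge plus Salmonella and control was 1.55 ± 0.47 SE, adjusted p = 0.0176, and it ended without sponge plus Salmonella replicate 4, or control replicate 1 or 4 (adjusted p from 0.0504 to 0.0603). The control mean of CD47, 5.13, lay under 5.24, so the sizes of its differences from control are uncertain. With 32 added, the difference between sponge plus Salmonella and control was 0.97. Between Salmonella and control the difference (0.99 ± 0.47 SE, adjusted p = 0.121) passed without control replicate 3 (adjusted p = 0.0213). CD34, an antigen of blood stem cells, averaged 5.36 ± 0.15, 4.97 ± 0.62 and 5.55 ± 0.31 in the sponge plus Salmonella, Salmonella and control groups, and was called lower with Salmonella only without Salmonella replicate 1 (adjusted p = 0.0267). CD248, a stromal antigen, was not called, at 6.77 ± 0.83, 6.61 ± 0.17 and 6.63 ± 0.61 in the same order.

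In all 3 groups, 7 genes had means below 5.24, so no fold is given for them. These are CD109, CD177, CD200R1L, CD207, CD5L, TNFRSF11B and TNFSF18. CD207 encodes langerin of Langerhans cells, CD5L a protein secreted by macrophages, and CD177 a neutrophil antigen. Library values of the 7 lay between 4.30 and 4.99. One of the 7, CD109, was called higher with Salmonella, at 4.76 ± 0.21 in Salmonella and 4.45 ± 0.08 in control libraries (adjusted p = 0.0422), and this call ended without sponge plus Salmonella replicate 2, Salmonella replicate 1, 2 or 3, or control replicate 1, 2 or 3 (adjusted p from 0.0503 to 0.118), with each library centred on its median (adjusted p = 0.131) and without the variance trend (adjusted p = 0.0667). CD200R1L passed as lower with the sponge than in control libraries without sponge plus Salmonella replicate 1 (adjusted p = 0.0239), with each library centred on its median (adjusted p = 0.0206) and after quantile normalization (adjusted p = 0.0421). CD3EAP is no surface antigen but encodes a subunit of RNA polymerase I, and it overlaps the repair gene ERCC1 in the annotation (chromosome 6, 51780709 to 51783696), so reads of both genes may be mixed. It averaged 4.92 ± 0.21, 4.89 ± 0.18 and 5.37 ± 0.16 in the sponge plus Salmonella, Salmonella and control groups. Its call as lower with Salmonella (adjusted p = 0.0355) ended without Salmonella replicate 2 or 4, or control replicate 2 or 4 (adjusted p from 0.0546 to 0.107). The call as lower with sponge plus Salmonella (adjusted p = 0.0383) ended without sponge plus Salmonella replicate 1, 2 or 4, or control replicate 2, 3 or 4 (adjusted p from 0.0504 to 0.109) and with only both groups in the fit (adjusted p = 0.057).

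**Figure D3:**
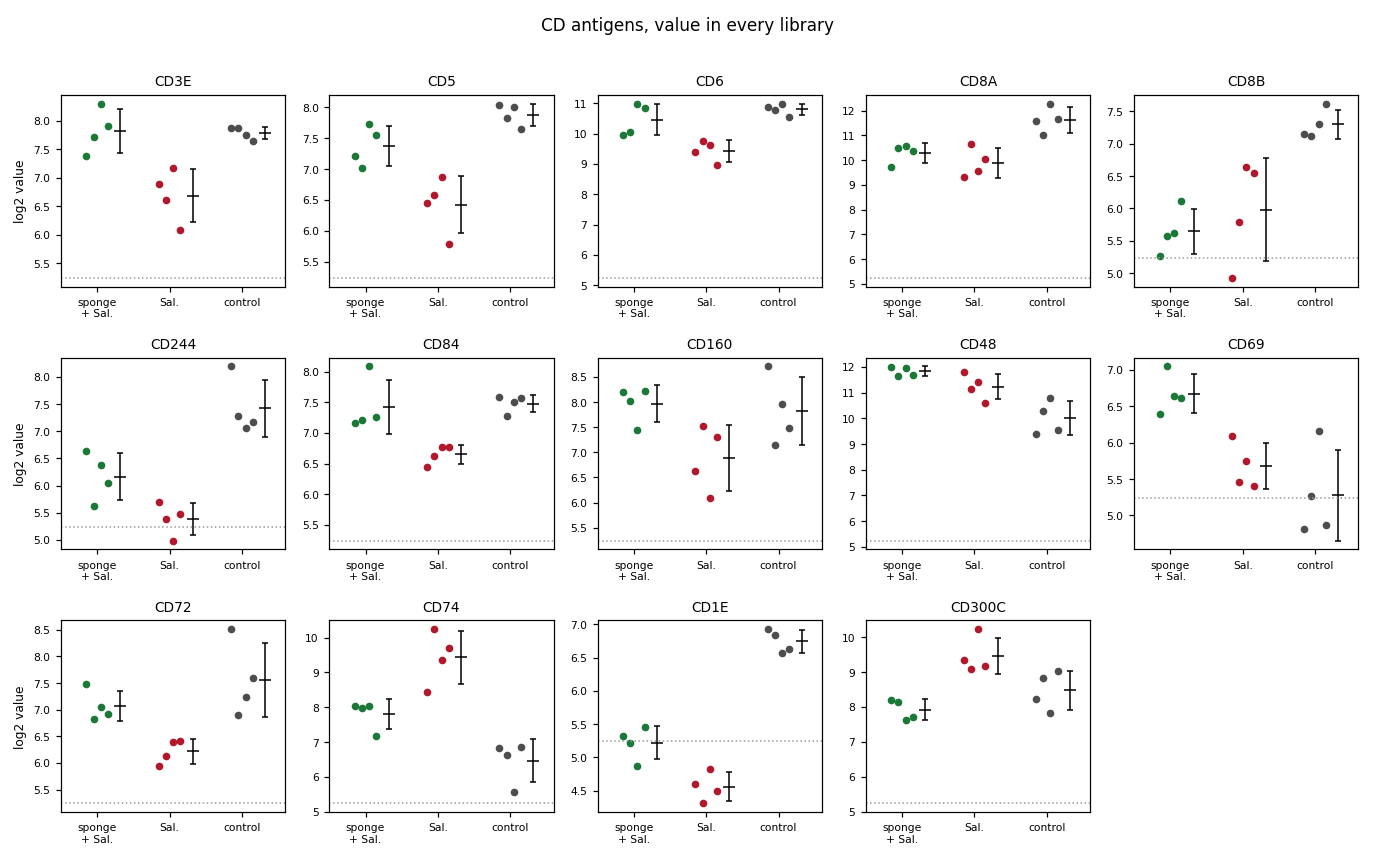
Log2 value of 14 CD antigen genes in every library (points; left to right sponge plus Salmonella, Salmonella marked Sal., and control), with the mean and SD of 4 libraries (bar) and the background level of 5.24 (dotted line). The vertical scales differ between genes. CD74 and CD1E each show 3 groups without overlap, in opposite order, and CD8A and CD8B are highest in all control libraries.

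**Figure D4:**
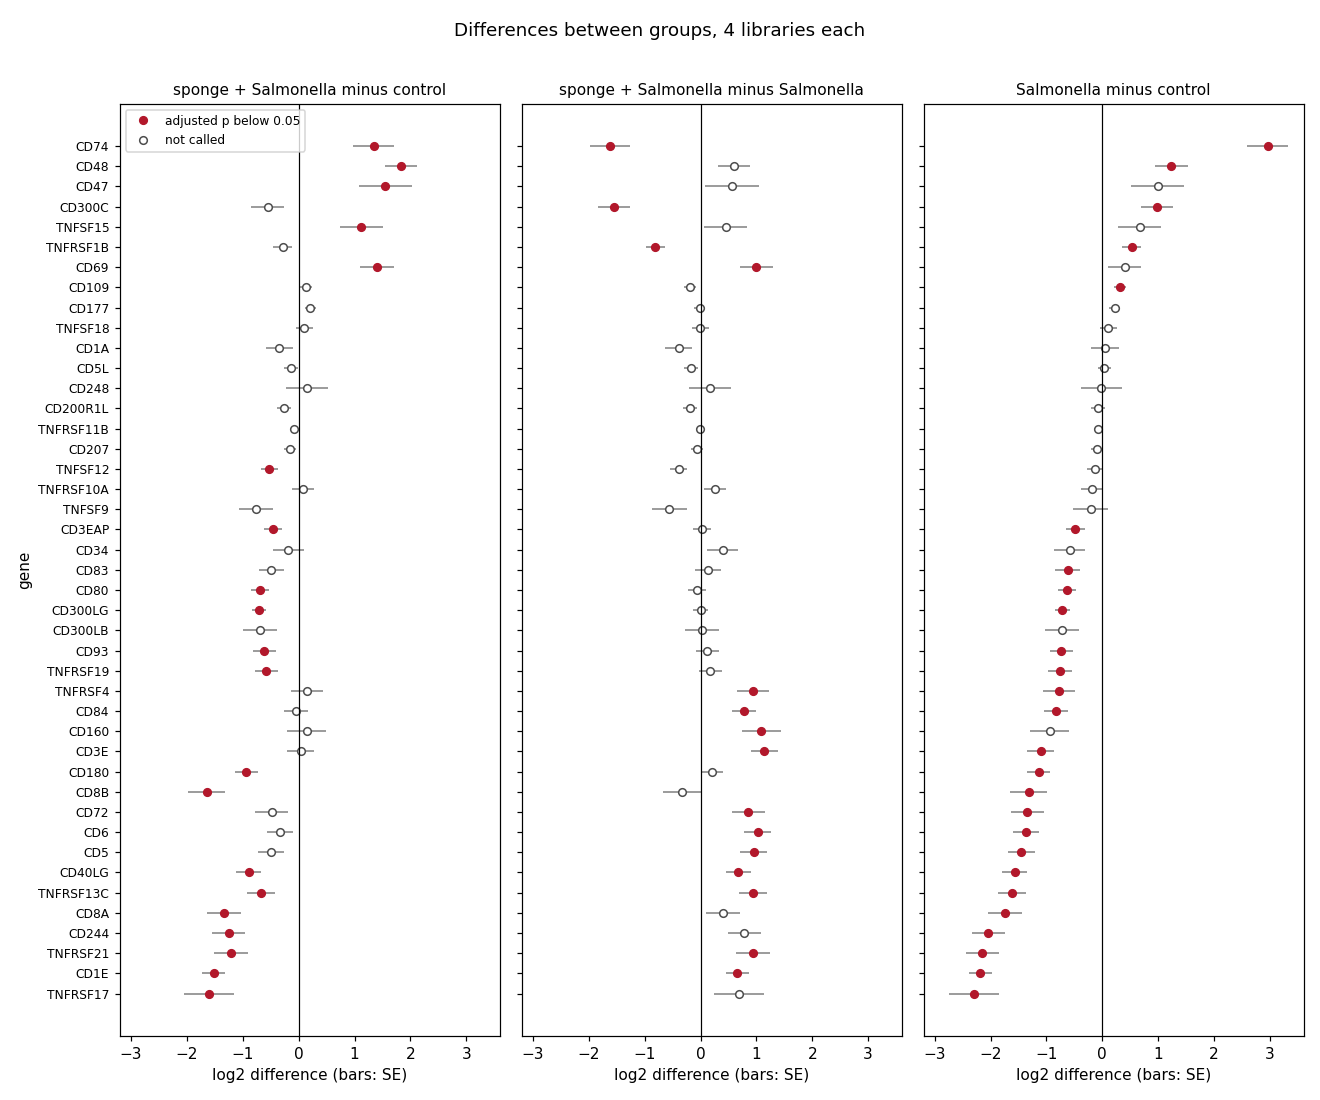
Log2 difference of 43 of the 44 genes (rows) in the 3 comparisons (panels, with the group named first minus the other), with the SE as bars. Filled points passed an adjusted p of 0.05 by limma and open points did not. CD74 and CD300C are above 0 in the panel of Salmonella minus control and below 0 in the panel of sponge plus Salmonella minus Salmonella.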

How the data were processed

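Total RNA was isolated (PAXgene kit) and Illumina TruSeq libraries were prepared, per the labels' protocols. Reads were single, of 50 bases, per the series text. Bowtie, R 3.4.2 and the build Sscrofa11.1 are named in the submitters' processing notes. How reads were counted, normalized and filtered is not given in the sources used here. As deposited by the authors, the table holds 1 log2 value per gene and library, for 7480 genes and 12 libraries. The base of the logarithm is not stated and was taken as 2. No counts were used, so no counting error is given.

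Group means of all 12 libraries were fitted together with limma 3.58.1 (R 4.3.3), moderating variances along a trend with mean level. Adjusted p-values are Benjamini-Hochberg values over all 7480 genes, two-sided. The SE is that of the moderated fit. How many true differences the fit misses in these data, and how many of its calls are false, was not tested. Genes that were not called may still have changed by 1 unit or more.

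The members and lists were chosen with earlier results of these data known. Genes given with a value in every library were those called without overlap and with a group mean of at least 5, up to 6 rises and 6 falls per comparison. 1 of the 44 genes enters the counts and medians but is not reported here singly. CD40LG, TNFSF12, TNFSF15 and CD47 were added after their values were seen. All TNFRSF and TNFSF genes were named. Coordinates are from RefSeq for Sscrofa11.1. In 19 alternatives the scaling, variance model, samples, replicate block, low values or single libraries were changed. Pig sequences were not used here.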

Additional observations from a re-analysis of the deposited data

Results flagged for a closer look

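Among 129 groups of 4 values, 1 library stood far from the other 3 in 8, where chance flags about 1 in 20 groups. CD109 was highest in sponge plus Salmonella replicate 3, at 4.79 against 4.48 to 4.53 in the other 3. CD1A was lowest in Salmonella replicate 1, at 5.84 against 6.42 to 6.54 in the other 3. CD3EAP was highest in control replicate 4, at 5.61 against 5.27 to 5.32 in the other 3. CD74 was lowest in sponge plus Salmonella replicate 4, at 7.17 against 7.99 to 8.04 in the other 3. CD74 was lowest in control replicate 3, at 5.56 against 6.63 to 6.85 in the other 3. CD83 was highest in control replicate 1, at 8.10 against 7.45 to 7.51 in the other 3. CD84 was highest in sponge plus Salmonella replicate 3, at 8.08 against 7.16 to 7.25 in the other 3. TNFRSF19 was highest in sponge plus Salmonella replicate 4, at 5.40 against 5.03 to 5.04 in the other 3.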

How the results depend on the processing

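Of the member calls for Salmonella over control, 21 of 27 held under all of the 19 alternatives that fitted the gene. So did 9 of 16 for sponge plus Salmonella over Salmonella and 14 of 20 for sponge plus Salmonella over control. The calls of CD80 and CD300LG against control are counted among these. Both genes were absent from the fit with genes of a mean under 5 left out. Across the alternatives, 0 called differences changed sign. Leaving out each library in turn gave 3 to 5 higher calls for Salmonella over control, 7 to 14 for sponge plus Salmonella over Salmonella and 3 to 5 for sponge plus Salmonella over control. Centring each library on its median gave 3 higher calls for Salmonella over control. It moved the median difference of all genes to -0.10 for Salmonella over control and -0.20 for sponge plus Salmonella over control, and the all-gene split to 965 higher and 1778 lower and to 1062 higher and 2569 lower (as deposited, 1175 and 1338, and 1336 and 1721). With 32 added on the linear scale, the members' median for Salmonella over control was -0.34, and 21 called differences moved by over 1.5 times, which follows from damping values near background. With genes of a mean under 5 left out, the members' median for sponge plus Salmonella over Salmonella was 0.45, with fewer genes in it. Same-numbered libraries did not deviate together (correlations of -0.36 to 0.38, and 3 of 12 libraries correlated best with their own number), so the numbers were not taken as pairs. The replicate block, with the calls of CD109, CD3EAP and TNFRSF4, of CD1E and TNFRSF4, and of CD3EAP, TNFRSF13C and TNFRSF19 lost and that of CD244 gained, gave 4 higher and 20 lower members for Salmonella over control, 12 and 3 for sponge plus Salmonella over Salmonella, and 5 and 12 for sponge plus Salmonella over control. The depth of the libraries is unknown, and background limits the size of changes near 5.24.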
